A study of Nicotiana tabacum with 8 samples.

Results

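The 10 genes described here are tomato (Solanum lycopersicum) expansin genes of the wider family, taken by their Solyc numbers from a list of 10 out of the 34725 coding sequences on which the reads were counted. In tomato the first 7 of the list are known as EXPA1 (Solyc06g051800), EXPA2 (Solyc06g049050), EXPA3 (Solyc03g031840), EXPA6 (Solyc10g086520), EXPA8 (Solyc01g090810), EXPA9 (Solyc06g005560) and EXPA11 (Solyc04g081870). The other 3, Solyc08g077910, Solyc05g007830 and Solyc07g054170, are given by number only, because no source used here names them. The paper's main table, a selection of its changed genes, also holds EXPA1, listed as a pollen expansin, and EXPA6, listed as Expansin-1. That table was drawn up from these same libraries, so the direction of those 2 genes is not independent evidence. The paper's full list of changed genes is in its supplement and was not compared here. The deposited files hold no descriptions and no Solyc number was found in the tobacco reference table, so the label alpha-expansin could not be checked for any of the 10 genes and no sequence is shown.

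Expansins are small secreted proteins that loosen the plant cell wall at acidic pH. They act without cutting wall polymers, by disturbing the contacts between cellulose microfibrils and the matrix around them, and so allow turgor to stretch the cell. Alpha-expansins form the largest branch of the family in plants such as tomato and tobacco, beside the beta-expansins and the expansin-like proteins, and individual genes are used in particular growing or softening tissues. In tomato, EXPA1 is known for its part in the softening of ripening fruit, EXPA2 is an auxin-responsive gene of elongating hypocotyls and growing fruit, EXPA3 is active in expanding green fruit, and EXPA8 belongs to germinating seeds.

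RNA came from shoot tips (the apical meristem with the terminal leaves) of tobacco (Nicotiana tabacum, cultivar Samsun), in 4 control and 4 TC09-exposed libraries. Seedlings raised from surface-sterilized seed for 6 days were moved to vessels of Murashige and Skoog medium with sucrose, 3 to a vessel, and kept for 10 days either without exposure or with the volatiles of TC09, a strain of the airborne fungus Cladosporium sphaerospermum. The libraries of a group are called biological replicates. By the labels the seedlings of 1 vessel went into 1 tube, whereas the paper speaks of replicate plants, so p-values measure the spread between vessels or plants of a single experiment. The treatment text is the same for all 8 samples and describes unexposed culture, so the groups were taken from the exposure tag. The labels number the control libraries 9 to 12 and the exposed libraries 13 to 16, and anything in preparation or sequencing that followed these numbers cannot be told apart from the exposure. Reads were counted on tomato genes, so each value covers all tobacco gene copies that resemble the tomato gene. In bulk tissue, a change in the share of cells with a transcript cannot be told apart from a change per cell. No tissue markers were checked. In its first exposure test the paper describes thicker stems and larger leaves of exposed plants at 10 days. Whether the sampled shoot tips differed in make-up was not tested.

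The libraries held 7853857 to 9674090 reads assigned to genes. Levels are given as CPM, the reads of a gene scaled to library size and corrected by the trimmed mean of M-values (TMM). Where different genes are set side by side, levels are given as TPM, which corrects for coding length but not by TMM. Changes between the groups read from TPM are therefore not the fitted ratios. EXPA2, for example, had means of 200.1 TPM in the control and 229.2 TPM after exposure beside a fitted ratio of 1.04. Control replicates 2 and 3 stood apart in the expansin genes. Among the 8 genes with enough reads, replicate 2 was the highest control library in all 8 and replicate 3 the lowest in 6, whereas over all genes tested these 2 libraries were the highest and the lowest control in 28.7% and 27.5% of the genes. In the 8 further expansin genes of the paper's table, replicate 2 was the highest control library in 7 and replicate 3 the lowest in 7, though not in the same 7. TC09-exposed replicate 2 differed most from its group over all genes, with chi-square values, divided by their degrees of freedom, of 18.5 to 34.4 against the other exposed libraries and of 6.84 to 9.94 among those. Every fit was repeated without each library in turn, and the values without a library are given where they change a call or its direction, or where 1 library moves an estimate most.

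After exposure to TC09, 2 of the 10 expansin genes were higher, EXPA6 by 2.45-fold and EXPA1 by 2.11-fold, and 0 were lower. Both were of middling abundance within the set, with mean TPM at the 84.8th (EXPA6) and 78.6th (EXPA1) percentile of all coding sequences. EXPA2, Solyc05g007830 and EXPA11, which are the most abundant of the set, had ratios of 1.04, 1.04 and 1.19 and did not pass the test, nor did EXPA3, EXPA9 and Solyc07g054170. EXPA8 and Solyc08g077910 were all but undetected. Among the 19325 genes left by the low-count filter, 9.56% were called higher (1847 genes) and 12% lower (2317 genes), where a call needs an adjusted p no greater than 0.05 (edgeR's quasi-likelihood test with Benjamini-Hochberg adjustment over the whole table), beside 2 higher and 0 lower among the 8 expansin genes that passed the same filter. The estimate was above 0 in all 8, with a median log2 fold change of 0.25, against 0.01 over all genes tested. A median of this kind over 8 chosen genes is a description. Without control replicate 3 the estimates of EXPA2 and Solyc05g007830 were -0.08 and -0.05. The 8 estimates rest on the same control libraries, so their signs are not separate observations.

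**Figure D1:**
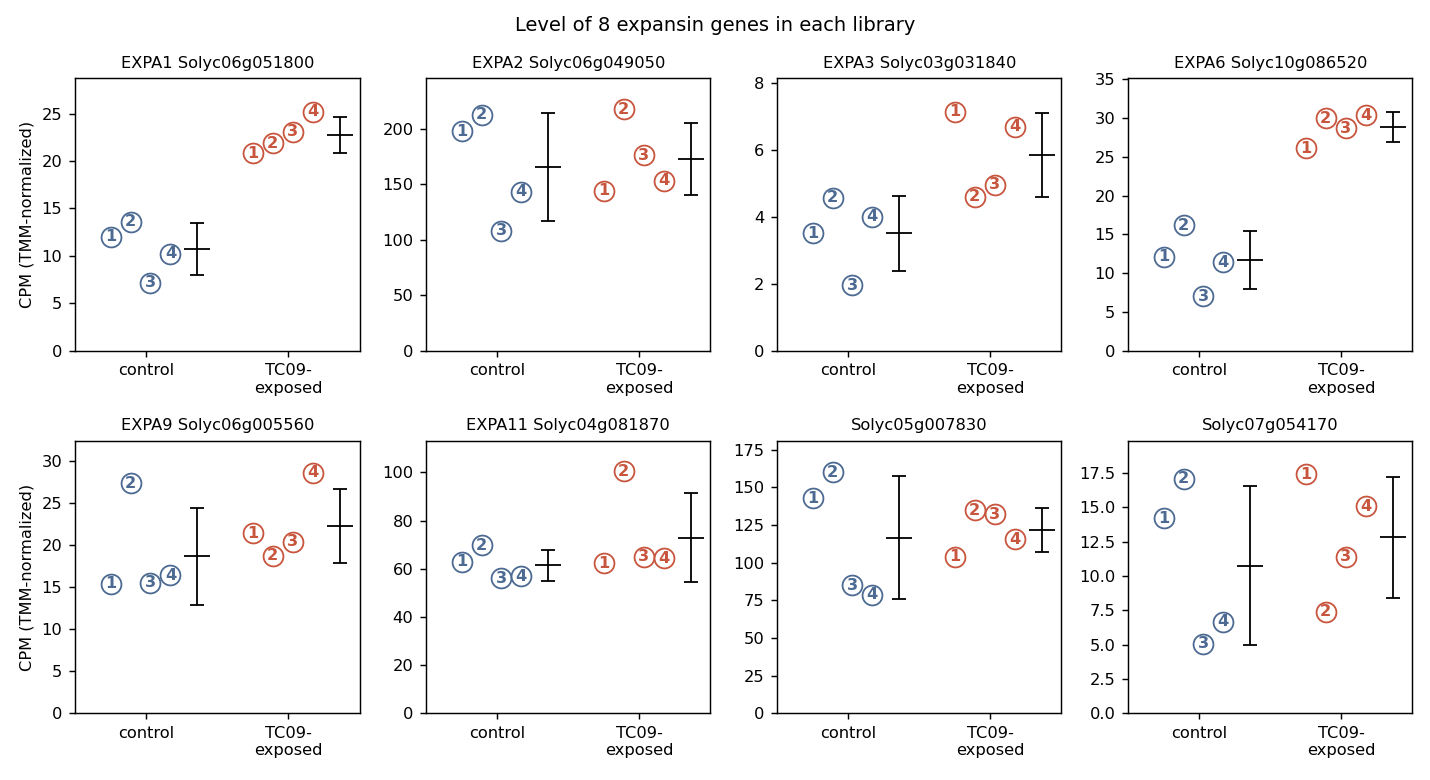
Level of the 8 expansin genes that passed the filter in each library, in CPM, with the replicate number in each circle and, to the right of it, the mean with 1 SD over the 4 libraries of a group. In EXPA1, EXPA3 and EXPA6 the exposed libraries all lie above the controls, and in the other 5 genes the groups overlap; among the controls, replicate 2 is the highest in all 8 panels and replicate 3 the lowest in 6.

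EXPA6, on tomato chromosome 10 by its number and with the shortest coding sequence of the set (636 bp), changed most. Its control libraries, in the order of replicates 1 to 4, held 12.1, 16.2, 7.02 and 11.4 CPM, and its exposed libraries 26.1, 30.0, 28.7 and 30.4 CPM. Every exposed library was above every control library, and the exposed libraries lay close together. The control mean of 11.7 ± 3.76 CPM and the exposed mean of 28.8 ± 1.94 CPM (SD, n = 4 each) rest on 399 and 1063 reads. The log2 fold change was 1.29 (standard error 0.198, 95% interval 0.85 to 1.73, adjusted p = 0.00200, edgeR). Nearly all of its reads (99.2%) matched no other gene. The call held in every alternative fit, with the lowest estimate, 1.13, when control replicate 3 was left out.

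EXPA1, the fruit-softening expansin of tomato, is on chromosome 6 by its number. It had 12, 13.6, 7.15 and 10.2 CPM in control replicates 1 to 4 and 20.8, 21.9, 23.1 and 25.2 CPM in the exposed libraries. The groups did not overlap, and the highest control was well below the lowest exposed library. Group means were 10.7 ± 2.76 CPM in the control and 22.8 ± 1.85 CPM with exposure (SD, n = 4 each), on 365 and 841 reads. This was a log2 fold change of 1.08 (standard error 0.173, 95% interval 0.70 to 1.46, adjusted p = 0.00248, edgeR), and 99.9% of the reads were unique. The replicate spread of EXPA1 was 25.7% of the mean in the control and 8.13% after exposure, where counting alone would give 10.5% and 6.90%. For EXPA6 the spread was 32.2% and 6.72%, where counting alone would give 10.0% and 6.13%, so in both genes the exposed libraries varied little beyond counting error.

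EXPA3, known from expanding green fruit in tomato, was the least abundant of the 8, with 120 control and 215 exposed reads. Control replicates 1 to 4 held 3.51, 4.56, 1.95 and 4.00 CPM, and the exposed libraries 7.13, 4.59, 4.96 and 6.68 CPM. Every exposed library was above every control library, but exposed replicate 2, with 41 reads, was barely above control replicate 2, with 40. Such separation, with the exposed libraries above, was found in 3 of the 8 expansin genes (EXPA1, EXPA3 and EXPA6) and in 11.5% of all genes tested. The opposite, with the exposed libraries below, was found in none of the 8 and in 13.4% of all genes. The ratio of EXPA3 was 1.65 (log2 fold change 0.72, standard error 0.256, 95% interval 0.15 to 1.29), with an unadjusted p of 0.0176 and an adjusted p of 0.0694 (edgeR), so it did not pass. It passed without exposed replicate 2 (0.82, adjusted p = 0.0422, edgeR), with scaling by total reads alone (0.82, adjusted p = 0.0346, edgeR) and with edgeR's likelihood-ratio test (adjusted p = 0.0330), where the range over its alternatives was 0.0330 to 0.174.

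EXPA2, the auxin-responsive expansin of tomato hypocotyls, was the most abundant of the set. Its control libraries held 197.4, 212.6, 108.0 and 143.2 CPM and its exposed libraries 143.9, 217.4, 175.9 and 153.2 CPM. The ranges of the groups covered nearly the same levels, and only 1 exposed library was above the highest control. On 5612 control and 6380 exposed reads the ratio was 1.04, with a 95% interval of 0.758 to 1.44 (edgeR, log2 fold change 0.06 with a standard error of 0.208, adjusted p = 0.858). Counting error was 2.67% of the control mean while the control libraries spread by 29.3%. A rise of EXPA2 by as much as that of EXPA6 or EXPA1 lies outside its interval.

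Solyc05g007830, a gene that no source used here names, came next. Control replicates 1 to 4 held 142.6, 160.0, 85.0 and 78.6 CPM, in a high and a low pair, and the exposed libraries 104.0, 134.8, 132.1 and 115.7 CPM. All 4 exposed libraries fell between the extremes of the control. The mean was 116.6 ± 40.8 CPM in the control and 121.6 ± 14.5 CPM after exposure (SD, n = 4 each), with a ratio of 1.04 and a 95% interval of 0.747 to 1.46 (adjusted p = 0.866, edgeR). The estimates of EXPA2 and Solyc05g007830 were so close to 0 that leaving out single libraries turned their sign, over a range of log2 fold changes of -0.08 to 0.21 and of -0.09 to 0.26.

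EXPA11 was the steadiest gene of the control group. It held 63.0, 69.7, 56.0 and 57.0 CPM in control replicates 1 to 4 and 62.2, 100.4, 64.9 and 64.4 CPM in the exposed libraries. The rise in the exposed mean, from 61.4 ± 6.34 to 73.0 ± 18.3 CPM (SD, n = 4 each), came mainly with exposed replicate 2, the library that differed most from its group over all genes. The ratio was 1.19 with a 95% interval of 0.933 to 1.51 (log2 fold change 0.25, adjusted p = 0.286, edgeR), and without exposed replicate 2 the log2 fold change was 0.06.

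EXPA9 had 1 high library in the control, replicate 2, and exposed replicate 4 was higher still. Control replicates 1 to 4 held 15.4, 27.3, 15.5 and 16.4 CPM, and the exposed libraries 21.4, 18.7, 20.4 and 28.6 CPM. Apart from control replicate 2, each control library was below each exposed library. The ratio over all libraries was 1.19 with a 95% interval of 0.869 to 1.64 (log2 fold change 0.25, adjusted p = 0.408, edgeR). Without control replicate 2 it passed the test with a log2 fold change of 0.50 (adjusted p = 0.0466, edgeR). Without exposed replicate 4 the log2 fold change was 0.13 (adjusted p = 0.699, edgeR). The adjusted p over all its alternatives was 0.0466 to 0.699. In every other alternative fit of EXPA9 it did not pass.

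Solyc07g054170, the third gene given by number only, was the most variable of the 8. It held 14.2, 17.1, 5.07 and 6.66 CPM in control replicates 1 to 4 and 17.4, 7.39, 11.4 and 15.1 CPM in the exposed libraries. The groups overlapped over most of their range, and the control again split into a high and a low pair, made up of the same libraries as in Solyc05g007830. The control spread was 54.0% of the mean, where counting would give 10.5%. Its ratio of 1.19 had a 95% interval of 0.666 to 2.12 (adjusted p = 0.674, edgeR), wide enough to hold no change as well as the change found in EXPA1. The log2 fold change of Solyc07g054170, 0.25 over all libraries, was 0.03 without control replicate 3 and 0.57 without control replicate 2, and it passed in no fit.

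EXPA8, the seed-germination expansin, had 1 read in control replicate 4 and 0 in the 7 other libraries. Solyc08g077910 had 0 reads in all 8. A count of 0 allows up to 3 reads (counting error only). On total reads without TMM this is 0.310 to 0.382 CPM in a single library. Over all libraries of a group together it is 0.0858 CPM in the control and 0.0837 CPM after exposure. The control value does not apply to EXPA8, which had 1 read there. Neither gene passed the filter, no fold is given for them, and they were not detectable at this depth. Transcripts of a tobacco copy that has diverged from the tomato sequence would also be missed.

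**Figure D2:**
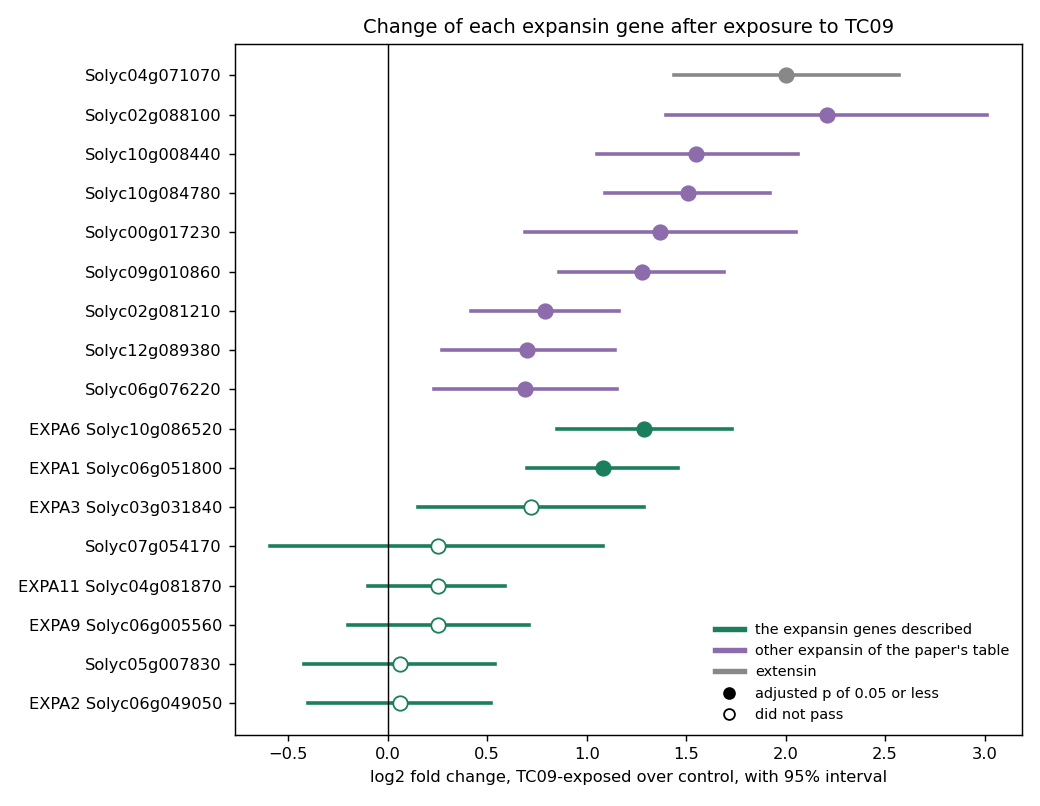
Log2 fold change of TC09-exposed over control libraries with its 95% interval, for the 8 expansin genes described that passed the filter (green), the 8 further expansin genes of the paper's table (purple) and the extensin gene Solyc04g071070 (grey). Filled points passed the test at an adjusted p of 0.05 or less: EXPA6 and EXPA1 among the green, and all of the purple and grey.

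Beside the 10 genes, the paper's table lists 8 further expansin genes and an extensin gene. With exposure, edgeR called all 8 of them higher, at ratios of 1.62 to 4.61 and a median log2 fold change of 1.32, but the study chose them from these libraries. Those listed as pollen expansins include the gene that changed most, Solyc02g088100, which went from 9.10 to 21.3 CPM in the controls to 40.5 to 126.0 CPM after exposure (edgeR, log2 fold change 2.21 with a standard error of 0.361, adjusted p = 0.00275). Solyc10g008440, listed as a pollen expansin B1, had a log2 fold change of 1.55 (adjusted p = 0.00158, edgeR). The calls of Solyc06g076220 and Solyc12g089380 were the least secure. Solyc06g076220 (log2 fold change 0.69, adjusted p = 0.0374, edgeR) lost its call when control replicate 1, 3 or 4 or exposed replicate 1, 3 or 4 was left out, with adjusted p up to 0.101, and Solyc12g089380 (0.70, adjusted p = 0.0280, edgeR) when control replicate 1, 3 or 4 was, with adjusted p up to 0.0786. Of the 10 genes described here, those outside the paper's table had 0 calls in either direction (edgeR). EXPA8 and Solyc08g077910 among them did not pass the filter, and EXPA3 had an unadjusted p under 0.05 (edgeR). Over all genes tested 9.56% were called higher and 12% lower, so 0 calls among so few genes is near that share. The paper's table was drawn from genes called changed in these libraries, so the contrast between the lists is partly built in.

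Per coding length, EXPA2 was at 200.1 ± 51.5 TPM in the control and 229.2 ± 60.7 TPM after exposure (SD, n = 4 each), which placed its mean over the 8 libraries at the 98.0th percentile of all coding sequences. Solyc05g007830 followed with 139.6 ± 43.3 and 159.4 ± 28.5 TPM, and EXPA11 with 71.9 ± 4.52 and 93.4 ± 30.9 TPM. The order of these 3 held within each of the 8 libraries. Below them, in the control, came EXPA9 at 21.7 ± 5.96 TPM, EXPA6 at 16.6 ± 4.83 TPM, EXPA1 at 12.3 ± 2.78 TPM, Solyc07g054170 at 11.9 ± 6.03 TPM and EXPA3 at 3.94 ± 1.21 TPM. EXPA1 was above Solyc07g054170 in only 2 of the 4 control libraries, so those neighbors were not separated, whereas every other neighboring pair of detected genes kept its order in all 4. After exposure EXPA6, at 44.3 ± 4.72 TPM, stood above EXPA9, at 27.9 ± 3.48 TPM, in all 4 libraries. EXPA1, at 28.3 ± 1.93 TPM, was level with EXPA9 and above it in 2 of 4, and Solyc07g054170 (15.4 ± 4.64 TPM) and EXPA3 (7.04 ± 1.18 TPM) closed the order.

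The TPM of the 10 genes summed to 542.9, 601.2, 354.2 and 413.8 in control replicates 1 to 4 and to 517.8, 769.6, 605.3 and 526.3 in the exposed libraries. These sums overlapped between the groups, with means of 478.0 ± 113.8 and 604.8 ± 116.7 TPM (SD, n = 4 each). The sums are not corrected by TMM, so the difference between these means also holds differences in library scaling. A change in the summed level was not tested. EXPA2, Solyc05g007830 and EXPA11 together made up 84.9% to 87.6% of the sum in the control libraries and 75.5% to 84.1% in the exposed libraries. EXPA1 and EXPA6 together made up 5.30% to 7.10% in the control and 10.5% to 13.6% after exposure, without overlap. These groupings were chosen after the values were seen and are given without a test.

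**Figure D3:**
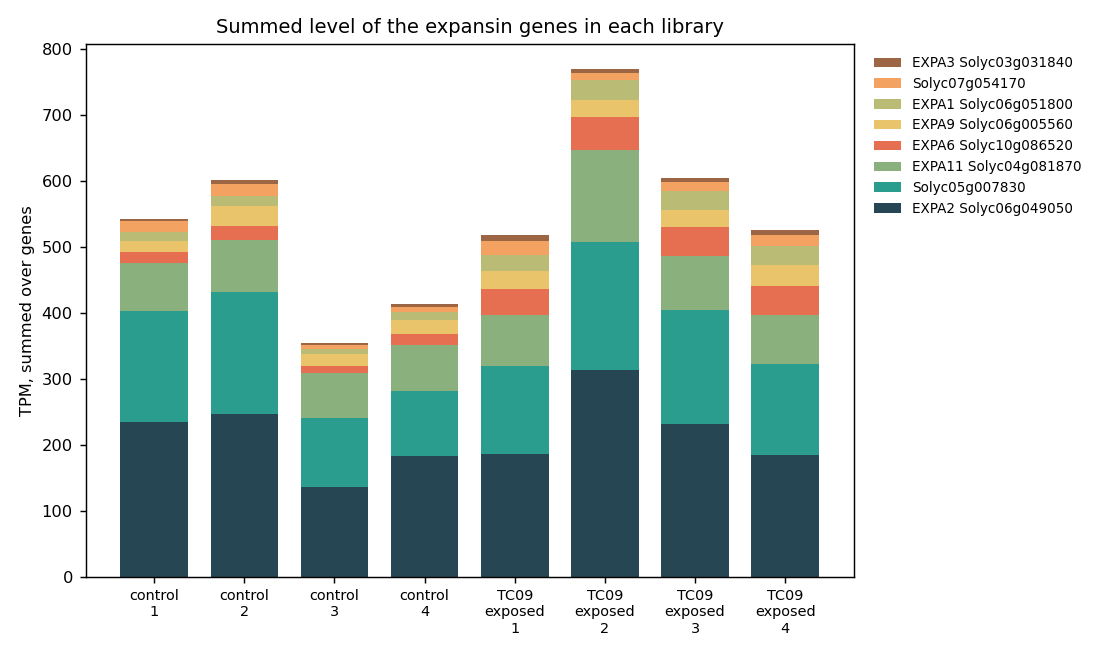
TPM of the 8 detected expansin genes, not corrected by TMM, stacked for each of the 4 control and 4 TC09-exposed libraries. The 3 lowest blocks (EXPA2, Solyc05g007830 and EXPA11) hold 75.5% or more of each bar, and the EXPA6 and EXPA1 blocks are taller in the exposed libraries.

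A ratio of 2 genes within a library does not depend on how libraries are scaled. The TPM of EXPA6 over that of EXPA2 was 0.0718, 0.0892, 0.0760 and 0.0935 in control replicates 1 to 4 and 0.212, 0.161, 0.191 and 0.232 in the exposed libraries. The lowest exposed ratio was thus well above the highest control ratio, although EXPA2 itself varied widely within both groups. EXPA1 over EXPA2 was 0.0575 to 0.0676 in the control, a narrow band that contrasts with the spread of either gene on its own, and 0.0955 to 0.155 after exposure. EXPA6 over EXPA1 was 1.21 to 1.47 in the control and 1.49 to 1.69 after exposure. Solyc05g007830 over EXPA2 was 0.545 to 0.781 in the control and 0.615 to 0.749 in the exposed libraries, where the groups overlapped. These ratios were picked after the values were seen and carry no test.

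The share of unique reads was 95.5% or more in each of the 8 detected genes, lowest in EXPA2, so few reads were shared with other tomato genes. The coding sequences that carry the Solyc numbers directly before and after each of the 10 genes were examined as a property that the list did not use. Of these 20 neighbors 16 passed the filter, 1 was higher and 1 lower (edgeR), beside the 9.56% and 12% over all genes. The higher one was Solyc01g090800, listed in the paper's table as a cyclin-dependent kinase, which had 72 control and 617 exposed reads directly beside the undetected EXPA8. The lower one was Solyc07g054160, at 0.738 times its control level (adjusted p = 0.0297, edgeR), beside Solyc07g054170. Neither neighbor of EXPA1 passed the test, with ratios of 0.923 and 1.13, nor did those of EXPA6, with ratios of 1.26 and 1.55 (adjusted p = 0.0558 and 0.154, edgeR).

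**Figure D4:**
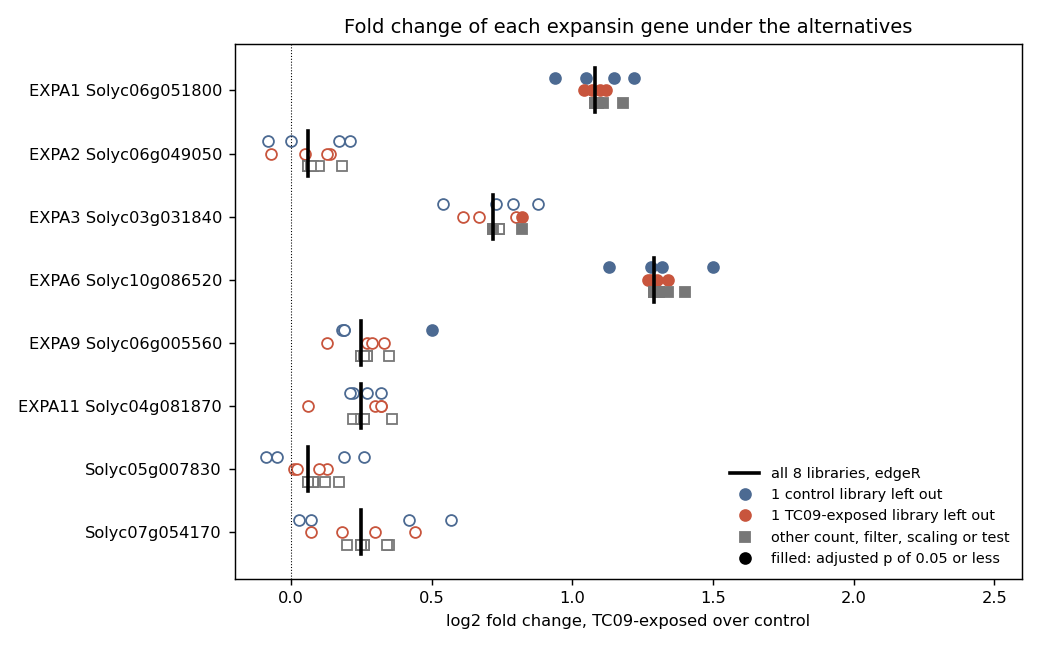
Log2 fold change of each of the 8 expansin genes with all libraries (black bar), with 1 control library (blue) or 1 TC09-exposed library (red) left out, and with another count, filter, scaling or test (grey squares); filled symbols passed at an adjusted p of 0.05 or less. EXPA1 (0.94 to 1.22) and EXPA6 (1.13 to 1.50) are filled throughout, EXPA3 and EXPA9 pass in 3 and 1 of the fits, and the others in none.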

How the data were processed

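Per the paper's methods, the authors trimmed and filtered reads, used CLC Genomics Workbench (version 10) to map them to the tomato genome and took annotations from the Sol Genomics Network, with no release number given. The sources name both single-end and paired-end reads. The deposited files hold, per library, counts of total and unique gene reads and TPM on 34725 coding sequences. The deposited TPM values equalled the counts divided by coding length and rescaled to the sum, to within 1.9e-10. Total gene reads were fitted across all genes with edgeR (version 4.0.16, R version 4.3.3). Genes passing filterByExpr were kept (19325, 55.7%), TMM factors ran from 0.938 to 1.10, and group was the only term of the quasi-likelihood model, with Benjamini-Hochberg adjustment over the whole table. Standard errors are the absolute log2 fold change over the root of F, and 95% intervals use the fit's degrees of freedom. The procedure was tested on simulated data. Alternatives were other filters, RLE factors, total library size, DESeq2 (version 1.42.0), limma-voom (version 3.58.1), the likelihood-ratio test, unique reads, an adjusted p of 0.01 and leaving out each library. All 10 genes are named. The genes and lists were chosen with earlier results of these data known.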

Additional observations from a re-analysis of the deposited data

Results flagged for a closer look

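A check for single libraries far from the 3 others of their group was run on the CPM of the 8 detected expansin genes, in 16 groups of 4 libraries. It marked 2, where chance marks about 1 group in 20. In EXPA9 (Solyc06g005560) control replicate 2 was high, at 27.3 CPM with the next control library at 16.4 CPM. In EXPA11 (Solyc04g081870) TC09-exposed replicate 2 was high, at 100.4 CPM with the next exposed library at 64.9 CPM. Control replicate 2 was also the highest control library of the 7 other genes, and exposed replicate 2 was the highest exposed library of EXPA2 and Solyc05g007830 as well. In EXPA3, EXPA9 and Solyc07g054170, however, exposed replicate 2 was the lowest exposed library. What sets these libraries apart was not tested.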

How the results depend on the processing

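The count of expansin genes called higher was 2 or 3, and of those called lower 0, under every alternative fit. The number called higher over all genes, at an unchanged threshold, was not constant. It was 1847 of 19325 in the main fit. It ran from 1148 of 19653 (without control replicate 1) to 3057 of 19325 (scaling by total reads). Where EXPA3 passed it was 3057, 2575 (without exposed replicate 2) and 2083 (likelihood-ratio test). Where EXPA9 passed, without control replicate 2, it was 1817. Of 127 refits of the 8 genes, 118 kept direction and side of the threshold, 4 newly passed (EXPA3 in 3, EXPA9 in 1) and 5 turned the sign of an uncalled estimate, all by leaving out a library in EXPA2 (-0.08 to 0.21) or Solyc05g007830 (-0.09 to 0.26). With scaling by total reads the all-gene median was 0.11 (log2) in place of 0.01, and every expansin estimate stayed above 0 relative to that shift. EXPA3 had too few reads for the filter at a mean of 50 reads. At an adjusted p of 0.01 or less, 5 of the 8 further expansin genes of the paper's table were called, in place of 8, and EXPA1 and EXPA6 remained. Depth limits EXPA8 and Solyc08g077910, and EXPA3 only in part. The counting error of EXPA3 was 18.3% of the control mean, where its control libraries spread by 32.0%. In all 8 detected genes the spread between libraries exceeded counting error in the control. No paired analysis was possible because the labels number the libraries of the groups without a shared number.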
